A study of Rattus norvegicus with 10 samples.

Results

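The genes described here are 6 transcription factors of the epithelial-mesenchymal transition, Snai1, Snai2, Twist1, Twist2, Zeb1 and Zeb2, and Vim, which encodes the intermediate filament vimentin. They were taken by name, from a list made with earlier results of these data known. The rule itself used no measured value and took the array rows (probe sets) that the platform annotation assigns to exactly 1 gene symbol. This gave 11 of the 31099 probe sets, for 6 of the 7 genes: 5 for Zeb2, 2 for Twist1 and 1 each for Snai1, Twist2, Zeb1 and Vim. No probe set carries the symbol Snai2 in that annotation, and Snai2 was not analysed here.

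The tumours were mammary tumours of female Sprague-Dawley rats given 1 oral dose of 7,12-dimethylbenz(a)anthracene (DMBA, 100 mg/kg), and 5 of them, of Bloom-Richardson grade II, were profiled on Affymetrix arrays before and after oral hydroxytyrosol, a phenol of olive oil. The basal group (n = 5) holds Trucut biopsies taken at 12 weeks of age, when the tumour had reached 2 cm3 and nothing had been given against it. The final group (n = 5) holds the same tumours at sacrifice at 19 weeks of age, after 6 weeks of hydroxytyrosol by gavage (0.5 mg/kg, 5 days/week). All tumours of both groups had been induced with DMBA, and tumours left untreated to the later age were not analysed here, so treatment, age and tumour growth cannot be told apart. The labels name the final piece a total tumour and the design text a Trucut piece, so a difference in sampling cannot be told apart from them either. These are pieces of whole tumour: for any gene below, fewer cells of a type and less RNA per cell cannot be told apart.

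The Snail, Zeb and Twist proteins bind E-boxes, short DNA motifs, and shut off epithelial genes such as Cdh1 (E-cadherin) when cells of an epithelium take on a mesenchymal form. Snai1 and Snai2 are zinc finger repressors, Zeb1 and Zeb2 carry zinc finger clusters and a homeodomain and are held down by the miR-200 family, and Twist1 and Twist2 are basic helix-loop-helix proteins that act in pairs with E proteins. Vimentin forms the filaments of mesenchymal cells. In mammary tissue these genes are also expressed in fibroblasts, vessel walls and leukocytes, so a tumour piece reports all of these cells together.

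The promoters of 4 genes that shared directions are printed here. Snai1 and Zeb1 matched each other in direction tumour by tumour, higher at the end in all but tumour 45D3, as 7.95% of tested probe sets were. Vim and the brighter Zeb2 probe set matched each other too, lower in 67D3 and 45D3 and higher in the rest, as 4.67% were. Whether the promoter sequences bear on these differences was not tested. Each window runs from 250 bases before to 50 bases after a start site in RefSeq's GRCr8 rat assembly. It is printed 5′ to 3′ on the gene's strand, and capitals mark E-boxes (CANNTG). For Snai1, Zeb2 and Vim that site is the start of the gene record. The Zeb1 site lies inside its record, whose 5′ end is base 56811155.
Snai1 promoter, chr3:176667226-176667525, plus strand: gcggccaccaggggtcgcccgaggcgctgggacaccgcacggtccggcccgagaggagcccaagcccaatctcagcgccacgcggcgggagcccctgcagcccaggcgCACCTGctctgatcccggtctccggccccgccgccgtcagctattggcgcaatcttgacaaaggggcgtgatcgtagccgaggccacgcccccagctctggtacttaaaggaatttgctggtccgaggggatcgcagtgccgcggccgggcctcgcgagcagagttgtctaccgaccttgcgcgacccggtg
Zeb1 promoter, chr17:56810604-56810903, minus strand: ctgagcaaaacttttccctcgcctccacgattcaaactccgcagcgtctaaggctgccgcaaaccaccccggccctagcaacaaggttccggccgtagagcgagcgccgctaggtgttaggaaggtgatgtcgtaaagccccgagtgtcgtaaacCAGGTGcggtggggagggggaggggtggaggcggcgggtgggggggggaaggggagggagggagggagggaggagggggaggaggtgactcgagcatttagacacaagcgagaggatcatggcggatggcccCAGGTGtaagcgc
Zeb2 promoter, chr3:49754274-49754573, minus strand: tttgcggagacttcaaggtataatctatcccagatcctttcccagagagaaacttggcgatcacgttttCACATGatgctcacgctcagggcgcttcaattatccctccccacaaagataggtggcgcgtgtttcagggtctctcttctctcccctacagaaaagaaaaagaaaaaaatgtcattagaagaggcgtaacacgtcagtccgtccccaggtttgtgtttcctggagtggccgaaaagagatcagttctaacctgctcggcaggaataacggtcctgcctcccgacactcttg
Vim promoter, chr17:81577011-81577310, plus strand: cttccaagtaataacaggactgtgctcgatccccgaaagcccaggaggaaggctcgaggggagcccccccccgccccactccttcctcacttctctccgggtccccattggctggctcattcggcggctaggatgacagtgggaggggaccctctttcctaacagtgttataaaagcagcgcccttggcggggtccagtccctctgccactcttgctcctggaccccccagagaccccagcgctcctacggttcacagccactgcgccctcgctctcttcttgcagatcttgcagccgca

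Snai1 held a single E-box, CACCTG, which begins at base -142 from the start and is CAGGTG on the other strand, the form preferred by Snail and Zeb proteins. Zeb1 held CAGGTG at -95 and at 38, counted from the start site of its window, and Zeb2 held only CACATG at -181. The Vim window held no CANNTG, and neither did those of Twist1 and Twist2, so these 3 windows lack these letters. CAGGTG on either strand occurs in 18.8% of the 33469 promoters of the same length in the RefSeq table, and CANNTG, which includes it, in 72.1%. The windows of Snai1, Zeb1 and Vim were rich in G and C (70.0%, 63.7% and 62.0%), against a median of 51.7% over all of these promoters. Those of Twist1 and Twist2 were as well (71.3% and 67.7%), while the Zeb2 window had 49.0%.

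Signals are RMA values on the log2 scale. The spiked-in control BioB, the lowest of the hybridisation controls, had a mean of 8.04 and serves below as a mark of dim signal. The dimmest 40% of probe sets by mean signal (below 5.14) were left out of the tests. Epithelial markers were bright: Krt8, Krt18, Krt19, Epcam and Cdh1 lay above BioB in all 10 arrays, while the luminal factors Esr1 and Foxa1 had means below the dim cutoff (4.60 and 3.98). As a measure of RNA quality, the signal of the 3′ hexokinase probe set minus that of the 5′ one, larger in degraded RNA, ranged from 0.97 to 2.36 in basal and from 0.89 to 1.10 in final arrays, and was highest in the biopsies of 45D3 (2.36) and 67D3 (2.03).

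None of the members changed by the test between basal and final samples. Of the 11 probe sets 8 passed the filter and were tested, and 0 of the 8 had a limma adjusted p under 0.05, where 0% of all 18625 tested probe sets did. At an unadjusted p under 0.05 the members again had 0 of 8, beside 8.02% of all tested probe sets, and the methods' t-test, which called 1394 of all probe sets at that unadjusted threshold, called 0 after adjustment. What the members showed was a spread between tumours, wide for some and not for others. The SD of the differences ran from 0.24 to 1.13 over the 8. Over all tested probe sets its median was 0.30 and its 90th percentile 0.75. Zeb1 and Snai1 were higher at the end in 4 tumours and lower in the other, 45D3, a pattern that 7.95% of tested probe sets had. For all 8 the basal and final ranges overlapped, as they did for all but 1.24% of tested probe sets.

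**Figure D1:**
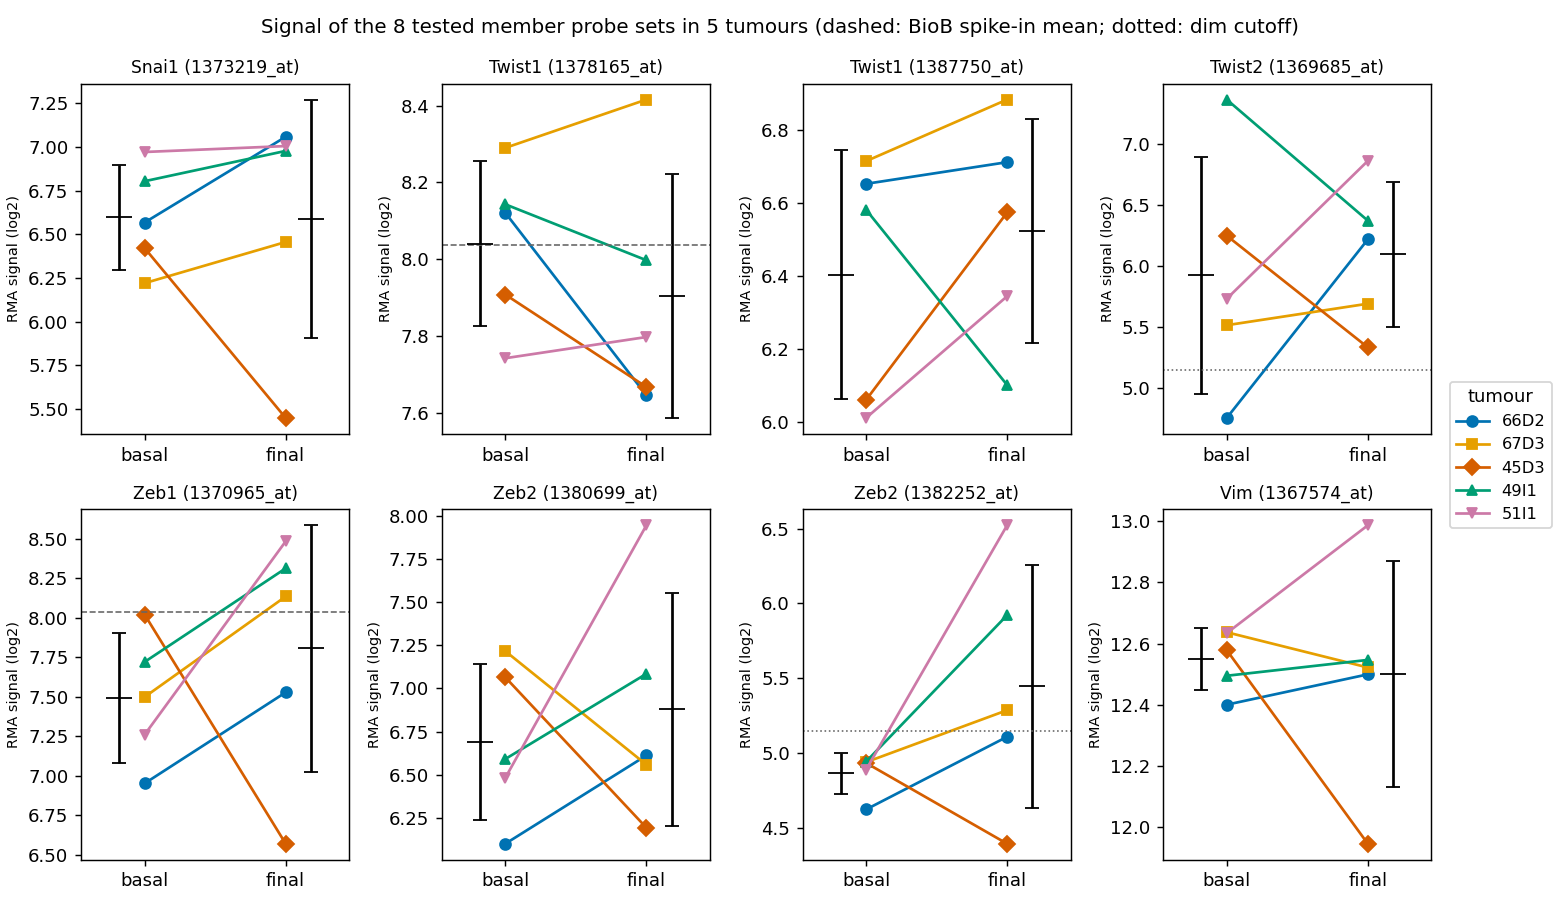
RMA signal (log2) of the 8 tested member probe sets, with 1 line per tumour from its basal to its final array; black bars beside the lines are group means with SD (n = 5), the dashed line is the mean BioB signal (8.04) and the dotted line the dim cutoff (5.14). Tumour 45D3 goes down in Snai1, Zeb1, Zeb2 and Vim, and 51I1 ends highest in Zeb1, Zeb2 and Vim.

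Snai1 (probe set 1373219_at), the Snail repressor, had signals of 6.57, 6.22, 6.42, 6.80 and 6.97 in the biopsies of 66D2, 67D3, 45D3, 49I1 and 51I1. At the end, in the same order, it had 7.06, 6.46, 5.45, 6.98 and 7.01. The signal was thus higher in 4 tumours, by 0.03 to 0.49, and lower by 0.97 in 45D3, whose final array was the lowest of the 10. The group means were 6.60 ± 0.30 (SD, n = 5) and 6.59 ± 0.68 (SD, n = 5), and the mean difference was -0.01 (SE 0.21, 95% interval -0.52 to 0.50, limma adjusted p = 0.993). Without 45D3 the mean difference was 0.23 (limma adjusted p = 0.322). Every Snai1 signal lay below BioB.

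Zeb1 (1370965_at), a repressor of Cdh1 and a target of miR-200, had 6.95, 7.50, 8.02, 7.72 and 7.26 in the biopsies of 66D2, 67D3, 45D3, 49I1 and 51I1. The final signals were 7.53, 8.14, 6.57, 8.31 and 8.48. The tumour with the most Zeb1 signal before treatment, 45D3, had the least after it, and the other 4 differed upward by 0.58, 0.64, 0.59 and 1.22. In basal samples 0 of 5 arrays lay above BioB, and in final samples 3 of 5 did. The means were 7.49 ± 0.41 (SD, n = 5) and 7.81 ± 0.78 (SD, n = 5), a difference of 0.32 (SE 0.36, 95% interval -0.56 to 1.19, limma adjusted p = 0.835). Without 45D3 the mean difference was 0.76 (SE 0.14) with a limma adjusted p of 0.132, and without 51I1 it was 0.09. With the hexokinase difference as a covariate it was 0.94 (SE 0.36, limma adjusted p = 0.348). With the skeletal muscle markers as a covariate it was -0.048, with a wider SE of 0.59.

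Zeb2, the second Zeb repressor, was read by 5 probe sets, of which 2 were tested. On the brighter (1380699_at) the biopsies of 66D2, 67D3, 45D3, 49I1 and 51I1 had 6.10, 7.22, 7.06, 6.59 and 6.48. The final samples had 6.61, 6.56, 6.19, 7.08 and 7.94. Here 3 tumours were higher at the end and both 67D3 and 45D3 were lower, by 0.66 and 0.87. The means were 6.69 ± 0.45 (SD, n = 5) and 6.88 ± 0.67 (SD, n = 5), a difference of 0.19 (SE 0.34, 95% interval -0.63 to 1.0, limma adjusted p = 0.903), which was -0.13 without 51I1. Fitting the hexokinase difference gave 0.82 (SE 0.30, limma adjusted p = 0.341), and fitting the muscle markers gave 0.52 (SE 0.55).

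The other Zeb2 probe sets were dimmer and did not read alike. On 1382252_at the 5 biopsies lay close together, from 4.62 to 4.94 and all under the dim cutoff, while the final samples of 66D2, 67D3, 45D3, 49I1 and 51I1 had 5.11, 5.29, 4.39, 5.92 and 6.52. Its mean difference, 0.58 (SE 0.29, 95% interval -0.11 to 1.28, limma adjusted p = 0.656), was the largest of the 8 tested member probe sets, and it was higher in 4 tumours. Only 3 of its 10 arrays passed the dim cutoff, all of them final, so it entered the test through the group where it is high. The 3 probe sets left out of the test differed among themselves. On 1393795_at all 5 tumours were higher at the end, by 0.06 in 45D3 to 1.75 in 51I1. On 1395130_at 45D3 was lower by 1.78 and 49I1 higher by 1.48, and on 1390940_at, under the dim cutoff in every array, 4 tumours were lower.

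Twist1, a helix-loop-helix factor of mesoderm and of the transition, was read by 2 tested probe sets. On the brighter (1378165_at) the biopsies of 66D2, 67D3, 45D3, 49I1 and 51I1 had 8.12, 8.29, 7.91, 8.14 and 7.74, and the final samples 7.64, 8.42, 7.67, 8.0 and 7.80. The SD of its differences, 0.24, was the smallest of the 8, with 2 tumours higher, by up to 0.13, and 3 lower, by up to 0.48. The means were 8.04 ± 0.22 (SD, n = 5) and 7.90 ± 0.32 (SD, n = 5), a difference of -0.14 (SE 0.12, 95% interval -0.42 to 0.14, limma adjusted p = 0.779). The second probe set (1387750_at) had means of 6.40 and 6.52 and differed by 0.12 (SE 0.15, limma adjusted p = 0.853). The 2 disagreed in direction in 66D2 and 45D3, where the second was higher at the end by 0.06 and 0.51.

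Twist2 (1369685_at), the close relative of Twist1 known from dermal fibroblasts, varied most of the 8 between biopsies: 4.75, 5.51, 6.25, 7.36 and 5.73 in 66D2, 67D3, 45D3, 49I1 and 51I1. At the end it had 6.22, 5.69, 5.33, 6.37 and 6.86. The SD over the biopsies was 0.97, beside a 90th percentile of 0.64 over all tested probe sets. Twist2 was higher in 66D2 by 1.46 and in 51I1 by 1.13, and lower in 49I1 by 0.99 and in 45D3 by 0.91. These opposite moves left a mean difference of 0.17 (SE 0.40, 95% interval -0.79 to 1.13, limma adjusted p = 0.923), which was -0.15 without 66D2 and -0.07 without 51I1. All 10 signals lay below BioB.

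Vim (1367574_at) was far above BioB in all 10 arrays and nearly even across biopsies, at 12.40, 12.64, 12.58, 12.49 and 12.63 in 66D2, 67D3, 45D3, 49I1 and 51I1. The final signals were 12.50, 12.52, 11.94, 12.55 and 12.99. Again 45D3 was the lowest final array and 51I1 the highest. The means were 12.55 ± 0.10 (SD, n = 5) and 12.50 ± 0.37 (SD, n = 5), and the mean final over basal ratio was 0.967 (95% interval 0.752 to 1.24, limma adjusted p = 0.945). Without 45D3 the log2 difference turned from -0.05 to 0.10.

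**Figure D2:**
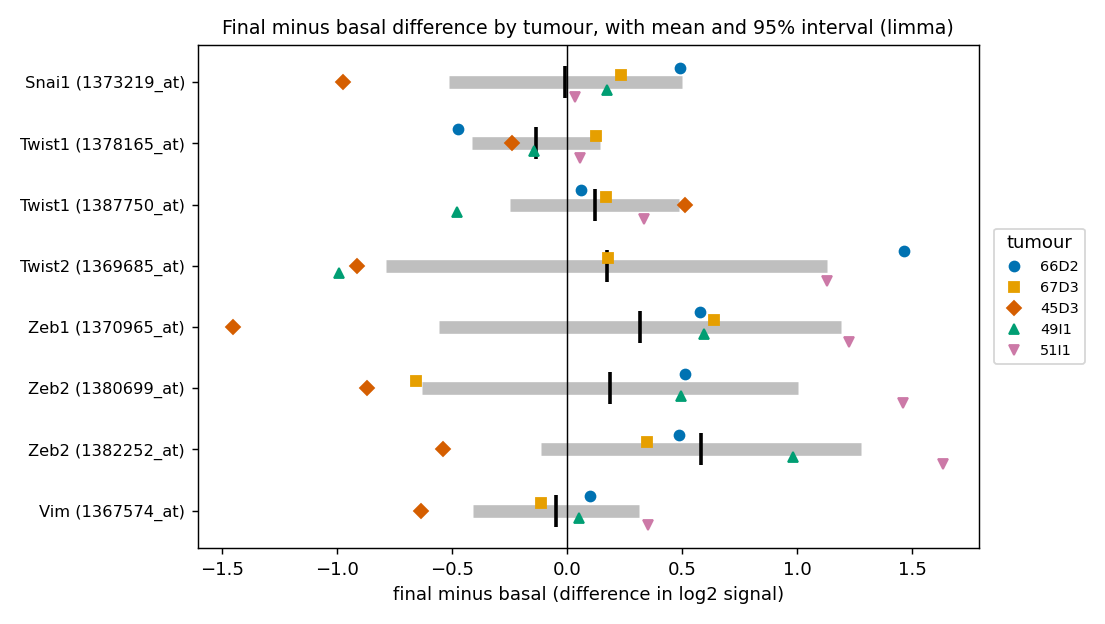
Final minus basal difference in log2 signal of each tested member probe set: coloured points are the 5 tumours, black ticks the mean difference and grey bars its 95% interval from limma. All 8 intervals include 0, and the 45D3 point lies left of the others for Snai1, Zeb1, Vim and both Zeb2 probe sets.

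The members did not move as 1 group. Snai1 and Zeb1 shared their direction in every tumour, higher in all but 45D3, a pattern that 7.95% of all tested probe sets had. The dimmer tested Zeb2 probe set (1382252_at) had it too. Vim and the brighter Zeb2 probe set shared another, lower in 67D3 and 45D3 and higher in the rest, which 4.67% of tested probe sets had. Twist2 was lower in 45D3 and 49I1 (2.38%), and the Twist1 probe sets followed neither pattern. A tumour that moved against the other 4 was common in the table for 45D3: 19.4% of tested probe sets had 45D3 on one side and the other 4 on the other, against 2.82% to 8.36% for the other tumours. The arrays of 45D3 were also the only pair whose deviations from their group means correlated negatively (-0.16). Across the 10 arrays, which come in pairs from 5 tumours, Pearson's r was 0.772 between Zeb1 and the brighter Zeb2 probe set, 0.759 between Zeb1 and Vim, 0.795 between Zeb2 and Vim and 0.729 between Snai1 and Vim. For the brighter Twist1 probe set r lay between -0.113 and 0.261 with the other genes' brightest probe sets. These values describe the arrays and were not tested.

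The marker lists of stromal and immune cells differed by tumour, and not all in the same way. The fibroblast list (10 of 10 genes measured, none below the dim cutoff, mean signal per array 8.91 to 10.16 in basal and 8.79 to 11.20 in final samples) was higher by 1.61, 1.42, 0.85 and 1.40 in 66D2, 67D3, 49I1 and 51I1 and lower by 1.38 in 45D3. This is the pattern of Zeb1, Snai1 and the dimmer tested Zeb2 probe set. The adipocyte list (10 of 10, with Plin1, Lep and Cidec below the dim cutoff, 5.61 to 7.06 and 5.75 to 8.95) had it too, with -1.31 in 45D3 and 3.34 in 51I1. The T and NK cell list (10 of 10, none below the dim cutoff, 5.74 to 7.58 in basal and 6.20 to 8.48 in final) was lower in 67D3 by 1.11 and in 45D3 by 0.77 and higher in the other 3. That is the pattern of Vim and the brighter Zeb2 probe set. The macrophage list (10 of 10, none below the dim cutoff, 8.06 to 9.02 and 8.20 to 9.99) was lower in 67D3 (-0.82), 45D3 (-0.74) and 49I1 (-0.45) and higher in 66D2 (0.88) and 51I1 (1.13), a pattern that no member had. The endothelial list (9 of 10 measured, none below the dim cutoff, 6.91 to 8.11 and 7.30 to 8.56) was lower in 45D3 (-0.77) and 49I1 (-0.16), as Twist2 was. Neither Twist1 probe set had the pattern of a stromal or immune list. The mean of the luminal list (10 of 10, with Esr1 and Foxa1 below the dim cutoff) differed by 0.23 or less in every tumour, but its genes went opposite ways: in 45D3 the mean difference was -0.06 and the median over the 8 tested genes 0.13, with Krt8 at 0.58, Krt18 at 0.50 and Cdh1 at 0.42 against Elf5 at -3.26. The hexokinase difference went from 2.36 to 0.89 in 45D3, and from 2.03 to 1.0 in 67D3, where Zeb1, Snai1 and the fibroblast list were higher at the end. The part of these cell types in the members' values was not tested.

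**Figure D3:**
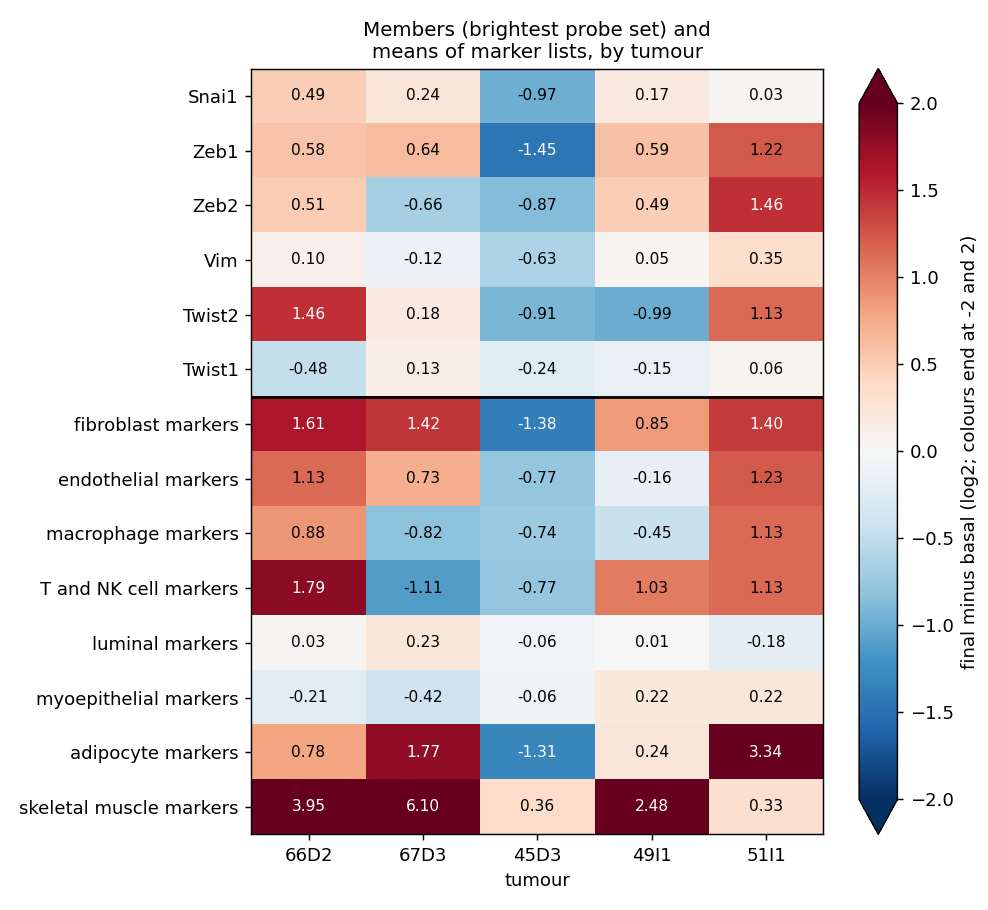
Final minus basal difference (log2) of the brightest probe set of each of the 6 member genes, above the line, and of the mean signal of 8 marker lists, below it, in each of the 5 tumours; colours end at -2 and 2. In 45D3 these 6 probe sets are lower (-1.45 to -0.24; the second Twist1 probe set, not drawn, is higher by 0.51), as are the fibroblast (-1.38) and adipocyte (-1.31) lists, and the luminal mean of -0.06 holds Elf5 at -3.26 with Krt8 at 0.58.

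The genes whose signal followed each member most closely over the 10 arrays were found by Pearson's r among all other tested genes, 3 for each member. For Zeb1 these were Dchs1, a large protocadherin (r = 0.965), Pdgfrb, the PDGF receptor of pericytes and fibroblasts (0.960, on a probe set that can match more than 1 transcript), and Scpep1, a carboxypeptidase (0.953). For Zeb2 they were Ptafr, the platelet-activating factor receptor of leukocytes (0.970), Il6r, the interleukin-6 receptor (0.959), and Mfng, a glycosyltransferase acting on Notch (0.957). Vim was followed by Apbb1ip, an integrin adaptor of leukocytes (0.914), Cep170, a centrosomal protein (0.910), and Gpx8, a peroxidase of the endoplasmic reticulum (0.898). For Snai1 they were Aida (0.945), Dpy19l1 (0.912) and Gsdmd, the pore former of pyroptosis (0.892). For Twist2 they were Ramp3, a receptor activity modifier (0.920), Tmem88 (0.919) and Fxyd6 (0.902). For Twist1 they were Slc12a4, a potassium-chloride cotransporter (0.900), Klhl2 (0.886) and Adamts1, a matrix protease (0.877). As an example of the values, Pdgfrb went from 8.11 to 6.46 in 45D3 and from 7.22 to 8.41 in 51I1, and Ptafr from 8.56 to 7.82 and from 8.14 to 9.01. The arrays share tumours and these genes were picked as the most alike of 10839, so r here is a description.

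**Figure D4:**
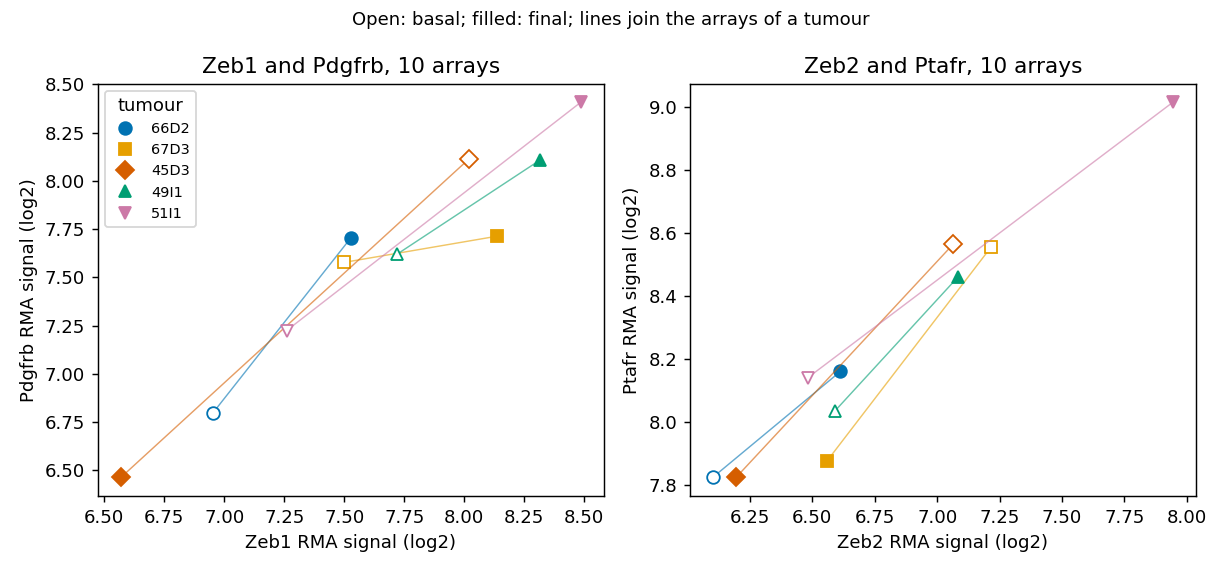
RMA signal (log2) of Zeb1 against Pdgfrb and of Zeb2 against Ptafr in the 10 arrays; open symbols are basal, filled symbols final, and lines join the arrays of a tumour. In both panels 45D3 moves down and to the left, and 51I1 ends at the upper right (Zeb1 8.48, Zeb2 7.94).

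No target that these factors repress changed by the test, but no probe set of the whole table did (0 of 18625). The counts of 0 calls for this list and those below therefore do not set their genes apart. Of the 21 epithelial junction and keratin genes tested 0 passed the limma threshold, 12 were higher and 9 lower, and the median difference was 0.01, beside -0.01 over all 10839 genes. Cdh1, the best known target of Snail and Zeb proteins, differed by 0.16 (SE 0.12, limma adjusted p = 0.757) and was higher in 4 tumours. In 45D3, where Zeb1 and Snai1 were lower, Cdh1 was higher by 0.42, and in 67D3, where both were higher, it was higher by 0.42 as well. Jup (plakoglobin) was higher in 5 of 5 tumours by 0.18 in the mean, Cldn3 (claudin 3) differed by 0.17 and Cdh3 (P-cadherin) by -0.18. Cdh3 lay below BioB in every array.

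Like the rest of the table, none of the genes that mark the mesenchymal state changed by the test. Of 23 tested 0 passed, 19 were higher and 4 lower (82.6% higher, beside 47.9% of all genes), with a median of 0.22. That median was 0.0068 once the muscle markers were fitted and 0.45 once the hexokinase difference was. Of the 23, 3 had an unadjusted p under 0.05 (13.0%, beside 7.14% over all genes). Postn (periostin) differed by 0.42 (SE 0.12) and Itgb1 (integrin beta 1) by 0.17, both higher in 5 of 5 tumours. S100a4, also called fibroblast-specific protein, differed by 0.80 (SE 0.27) and Mmp2, a gelatinase, by 0.66 (SE 0.64). Postn and S100a4 were among the 3 with an unadjusted limma p under 0.05, and Itgb1 and Mmp2 were not. In 45D3 Mmp2 was lower by 2.42 and S100a4 by 0.40. The fibroblast marker list given above shares 3 collagen genes with this one.

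The intermediate filament genes other than Vim had 0 of 11 past the threshold and a median of 0.03. Des (desmin), the filament of muscle, differed by 0.92 (SE 0.43, limma adjusted p = 0.649), most in 66D2 (2.51), 49I1 (1.46) and 67D3 (1.28), the tumours in which the mean of the skeletal muscle list (9 of 10 genes measured, Myh2 and Myh4 below the dim cutoff, 4.52 to 5.37 in basal and 4.85 to 11.22 in final samples) was higher by 3.95, 2.48 and 6.10. Vim differed by 0.10, 0.05 and -0.12 in those 3 tumours. Plec (plectin), a linker of filaments, differed by 0.30, and the lamins Lmnb2 and Lmnb1 by -0.23 and -0.19.

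Other transcription factors of the transition were 5 of 12 tested, with 0 past the threshold and a median of -0.25. Fosl1, an AP-1 subunit, differed by -0.64 (SE 0.25, limma adjusted p = 0.611), Prrx1 by 0.46, Lef1, a Wnt effector, by -0.36 and Sox4 by -0.25. Fosl1 and Prrx1 lay below BioB in all 10 arrays. Factors that hold the epithelial state had 0 of 8 past the threshold and a median of -0.09, which was -0.62 with the skeletal muscle covariate, 0.049 without 45D3 and 0.011 without 51I1. Grhl1 (grainyhead-like) differed by -0.26, the splicing regulator Esrp1 by -0.17, Cebpa by 0.15 and Elf5, a factor of the luminal secretory lineage, by -0.12. For Elf5 that mean held a difference of -3.26 in 45D3 and of 1.52 in 51I1.

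Partners and corepressors of the members had 0 of 15 past the threshold and a median of 0.03. Id3 and Id1, which bind E proteins and keep them from Twist, had the largest differences, 0.41 (SE 0.57) and 0.38 (SE 0.60). Their values by tumour were wide: Id3 differed by 1.42, 1.54, -2.20, -0.13 and 1.44 in the tumour order used above, and Id1 by -2.06 in 45D3. Twist2 was lower in the same 2 tumours, 45D3 and 49I1, a pattern that 2.38% of tested probe sets had. In 49I1 Twist2 differed by -0.99 and Id3 by -0.13. A link between Twist2 and the Id genes was not tested. Rcor1 and Hdac1, parts of a histone-modifying complex that Snail recruits, differed by 0.36 and 0.24, and both were higher in 45D3, by 1.08 and 1.55.

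Genes that set the stability of the Snail protein had 0 of 10 past the threshold and a median of 0.04. Loxl2, which binds Snail, differed by 0.32, the kinases Lats2 and Pak1 by 0.22 and -0.16 and the ubiquitin ligase Mdm2 by -0.19. Upstream inducers had 0 of 17 past the threshold and a median of 0.06. Egfr, the EGF receptor, differed by 0.41 (SE 0.16, limma adjusted p = 0.601) and Notch1 by 0.34 (SE 0.14, limma adjusted p = 0.629), both higher in 5 of 5 tumours. Smad4, the shared mediator of TGF-beta signals, differed by -0.19 (SE 0.09) and was lower in 5 of 5, and Met, the receptor of hepatocyte growth factor, by 0.32. Met lay below BioB in every array. At an unadjusted p under 0.05 limma had 1 inducer (Egfr), 1 other factor of the transition (Fosl1) and the 3 mesenchymal genes, and 0 in the other 5 lists, from the epithelial targets to the filaments. Of the inducers 17.6% had the same direction in all tumours, beside 8.78% of all genes, while 0 of the 8 tested member probe sets did, beside 8.71% of tested probe sets.

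**Figure D5:**
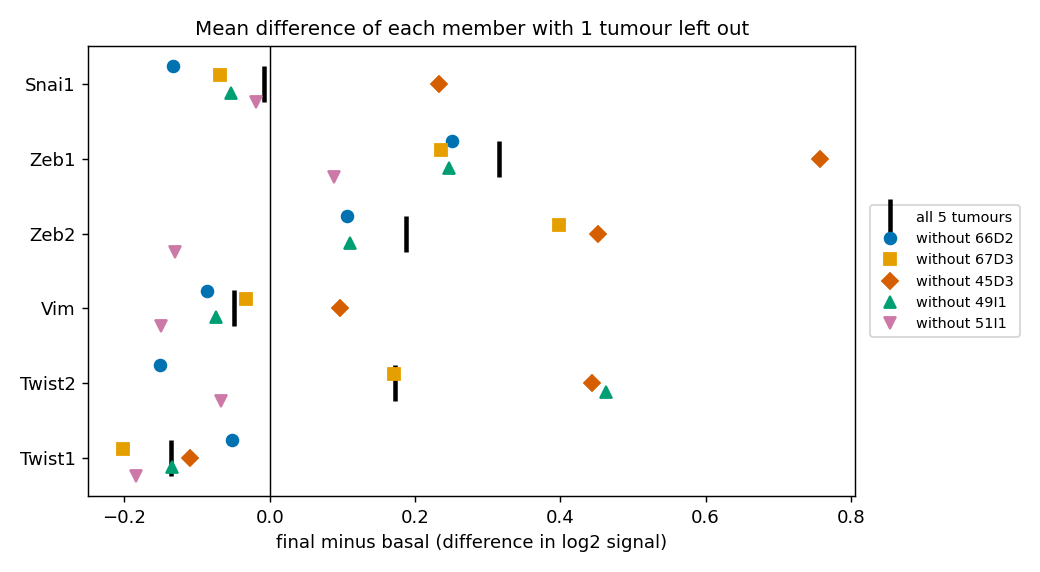
Mean final minus basal difference (log2) of the brightest probe set of each member gene with all 5 tumours (black ticks) and with each tumour left out (coloured symbols). Without 45D3 the value of Zeb1 goes from 0.32 to 0.76 and that of Snai1 from -0.01 to 0.23, and without 51I1 that of Zeb2 goes from 0.19 to -0.13.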

How the data were processed

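RNA of 5 tumours, sampled before and after treatment, was measured on 10 arrays. The authors deposited log2 signals that they had made with RMA (Robust Multichip Average, version not stated), per the submitters' processing notes; the log2 scale was read from the range of the values. The table still held 57 control probe sets. Since RMA equalises the arrays' distributions, shifts common to most genes would be lost. Of 31042 other probe sets the 2016 platform annotation gave 1 symbol to 20826, several to 436 and none to 9780.

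Differences were fitted with limma 3.58.1 (R 4.3.3; statmod 1.5.0) over the 18625 probe sets left after dropping the dimmest 40%, with the tumour as a block, since both arrays of a tumour carry its identifier, and Benjamini-Hochberg adjustment at 0.05. The pairing was also looked for in the values: the deviations of a tumour's arrays from their group means correlated at 0.72, 0.47, -0.16, 0.29 and 0.17 in 66D2, 67D3, 45D3, 49I1 and 51I1. Only the final array of 45D3 correlated better with another tumour's biopsy than with its own. A gene's value is that of its brightest probe set. Lists are described by counts and medians only. From each pathway list up to 4 genes are named, those moving the same way in all tumours first and then by size. The number of arrays limits the precision, and nothing states that the animals differ between tumours. The members, lists and alternatives were chosen with earlier results of these data known. The fit was also run on simulated data with independent noise for each probe set. Genes that move together, as many did in 45D3, were not simulated, so that run says nothing about their effect. Promoters come from RefSeq (GRCr8) and matched 6 of 7 genes.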

Additional observations from a re-analysis of the deposited data

Results flagged for a closer look

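Among 24 sets of 5 values (basal, final and difference of the 8 tested member probe sets), 2 held a value far from the other 4, where chance gives about 1 in 20. The final minus basal difference of Zeb1 was -1.45 in 45D3, while the nearest tumour had 0.58 and the farthest 1.22. The basal signal of the second Zeb2 probe set was 4.62 in 66D2, beside 4.89 to 4.94 in the other biopsies, all of them under the dim cutoff. The hexokinase 3′ minus 5′ difference went from 2.36 to 0.89 in 45D3 and from 2.03 to 1.0 in 67D3, where Zeb1 was higher by 0.64. With it as a covariate the mean Zeb1 difference was 0.94 (SE 0.36, limma adjusted p = 0.348). The part of the hexokinase difference in the 45D3 value of Zeb1 was not tested.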

How the results depend on the processing

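In no alternative did a member pass the threshold, and the lowest adjusted p of any member was 0.132, for Zeb1 without 45D3. The count of called probe sets was 0 in 15 of 16 alternatives and 2 with the hexokinase covariate. The replicate block (the tumour) changed no call: without it 0 probe sets passed (1001 at an unadjusted p under 0.05), and Zeb1 still differed by 0.32 (limma adjusted p = 0.984). Twist1 kept its direction in all 17 alternatives, from -0.20 to -0.01. Every other member gene turned in some. With array weights Snai1 differed by 0.20 and Vim by 0.049. With the hexokinase covariate Snai1 differed by 0.36, Vim by 0.20, Zeb2 by 0.82, Twist2 by 0.65 and the second Twist1 probe set by -0.078. With the skeletal muscle covariate Zeb1 differed by -0.048 (SE 0.59), Twist2 by -0.064 (SE 0.67), Snai1 by -0.40 (SE 0.29) and Zeb2 by 0.52 (SE 0.55). These SEs were wider than those of the main fit. Leaving out 1 tumour at a time gave -0.13 to 0.23 for Snai1, -0.15 to 0.10 for Vim, -0.15 to 0.46 for Twist2 and -0.13 to 0.45 for Zeb2. The list medians depended on the covariates too: with the skeletal muscle covariate those of the inducers, the epithelial targets, the Snail stability genes and the filaments turned to -0.13, -0.20, -0.057 and -0.067. The cause was not tested. Median centring and quantile normalization turned no member. Snai1, Twist2, Zeb2 and the second probe sets drop out with the stricter filters on dim probe sets, which gave no value for them. Signals below BioB limit Snai1, Twist2 and Zeb2 most.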
